A study of Anolis carolinensis with 2 samples.

Results

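Giant-transcript genes were taken as the genes of the green anole, Anolis carolinensis, whose single annotated transcript is 9000 bases or longer. A gene was a member when its locus held 1 gene and 1 transcript in the deposited tables and did not lie on one of the assembly's linkage groups. This rule found 66 of 21085 genes. It used no expression value. The RNA came from 2 whole embryos of this lizard, collected 0 to 1 days after laying. One embryo had 38 somite pairs and was set beside a mouse embryo of 10.5 days by the submitters. The other had 28 somite pairs and was set beside one of 9.5 days. Somites are the blocks of mesoderm along the body axis whose number stages an embryo. Each stage was 1 embryo and 1 library, so stage, embryo and library cannot be told apart, no value has a replicate error and no test was made. In RNA from whole embryos, fewer cells of a type and less RNA per cell cannot be told apart.

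The longest coding sequences of vertebrates are those of giant proteins. Such proteins include titin and nebulin of the muscle sarcomere, dynein heavy chains that move cargo and cilia, linkers of the cytoskeleton, very large ubiquitin ligases, chromatin regulators, large cadherins and proteins of the extracellular matrix. Their genes mostly carry many exons over a wide stretch of genome, and RNA polymerase needs longer to finish them than a short gene. The deposited identifiers are not paired with names, and 0 of them matched the reference table, so none of the 66 loci is assigned to a protein here and loci are given by position. Positions are on the AnoCar2.0 assembly and count from 1.

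The 66 transcripts were 9015 to 26427 bases long, with a median of 11246. All 66 were spliced, in that the locus was longer than the transcript. Loci spanned 10.3 to 415.8 kb with a median of 110.5 kb. They were compared with 567 spliced single-transcript genes of 4000 to under 9000 bases, also outside linkage groups, whose median span was 56.5 kb. Of the members, 37 lay on numbered chromosomes (13 of them on chromosome 1, 8 on chromosome 2 and 6 on chromosome 5) and 29 on unplaced scaffolds or contigs. A length divisible by 3, as a coding sequence without untranslated ends has, was found for 54 members (81.8%), so most of these lengths may be coding lengths. This share was below that of the comparison genes (92.2%) and of all single-transcript loci (86.8%). The 3 shortest members were 9015, 9039 and 9045 bases long and the 3 longest loci outside the threshold were 8970, 8964 and 8847 bases long.

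FPKM, fragments per kilobase of effective length scaled to the mapped fragments of the library, was converted to fragments through the whole-number steps of the deposited values. The library of 38 somite pairs held 12908614 mapped fragments and that of 28 held 13859397. The members took 90246 fragments at 38 somite pairs, or 0.699% of what was mapped (Wilson 95% interval 0.695 to 0.704). They took 139805 at 28, or 1.01% (1.00 to 1.01). These intervals and the later ones of fragment ratios cover counting error only. The comparison genes took 4.64% of mapped fragments at 38 and 6.65% at 28. The share at 38 was 0.697 times that at 28 in the comparison genes and 0.693 times in the members. At 38 somite pairs 25 members had 1000 fragments or more and 14 had under 100, and at 28 the numbers were 31 and 13.

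Most giant-transcript genes were lower at 38 somite pairs than at 28. With 1 FPKM added to every value, their median difference was about that of genes with transcripts of 4000 to under 9000 bases. Of the 64 members listed above 0 in both libraries, 50 had a lower FPKM at 38 (78.1%) and 14 a higher one. Of the single-transcript loci above 0 in both libraries 63.0% were lower and 37.0% higher, and of the comparison genes 81.4% were lower, a larger share than in the members. With equal fragments in listed transcripts, which multiplies the 38-somite values by 1.20 and was the strongest of 4 other scalings, 42 members were lower and 22 higher, beside 45.0% of those loci lower and 55.0% higher and 67.2% of the comparison genes lower. The median difference in log2(FPKM + 1), 38 minus 28, was -0.44 over the 48 members with an FPKM of 1 or more in a library. Of these 48, 4 met the condition through 1 library alone. The median was -0.44 over the 427 comparison genes that met the same condition, and -0.18 over all 10783 expressed genes. Relative to that overall shift the members were at -0.27 and the comparison genes at -0.26. The added 1 FPKM understates the difference of low genes.

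A difference of at least 1.5-fold in FPKM + 1 was found towards lower values at 38 in 17 of these 48 members (35.4%), beside 23.1% of all expressed genes and 31.6% of the comparison genes. Towards higher values it was found in 3 members (6.25%), beside 14.0% of all expressed genes and 1.41% of the comparison genes. Another scaling moved this split. With 38-somite values raised so that the median over expressed genes was 0, 9 members were at least 1.5-fold lower and 5 higher. Under this scaling 15.8% of expressed genes were lower and 18.3% higher, and 17.3% of the comparison genes were lower and 2.11% higher. With equal fragments in listed transcripts in both libraries, 5 members were lower and 5 higher. Then 14.2% of expressed genes were lower and 19.9% higher, and 14.5% of the comparison genes were lower and 2.81% higher. The members' median was then -0.27, against 0.05 for all expressed genes. Listed transcripts held 43.4% of the mapped fragments of the 38-somite library and 52.1% of the 28-somite one. The members' part of the listed fragments was 1.61% at 38 and 1.94% at 28.

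Because fragments are many, FPKM ratios without an added constant could be read for the 53 members with a mean of at least 100 fragments over the libraries. Their median log2 ratio, 38 over 28, was -0.61, an FPKM at 38 that was 0.654 times that at 28. It was -0.49 over 397 comparison genes and -0.24 over all 5029 single-transcript loci of that depth. Of the 53 members, 43 were lower at 38 by any amount, beside 70.8% of all loci, and 10 were higher, beside 29.2%. Of the 397 comparison genes 358 were lower and 39 higher, a larger share lower than in the members. In 27 members the value was at least 1.5-fold lower at 38 (50.9%), beside 23.1% of all loci and 39.0% of the comparison genes. In the other direction 5 members (9.43%) were at least 1.5-fold higher, beside 5.59% of all loci and 1.76% of the comparison genes. With the 38-somite values multiplied by 1.20, 37 of the 53 members were lower and 16 higher, and of all loci 48.5% were lower and 51.5% higher. Of the comparison genes 76.1% were then lower and 23.9% higher. At least 1.5-fold lower were then 12 members, beside 10.9% of all loci and 19.1% of the comparison genes. At least 1.5-fold higher were 6 members, beside 11.5% of all loci and 2.52% of the comparison genes. The medians were -0.35 for the members, -0.23 for the comparison genes and 0.02 for all loci. The ratios below are as deposited, and those between 0.834 and 1 turn to above 1 under that scaling. The standard deviation of the log2 ratio was 0.64 in the members, 0.43 in the comparison genes and 0.55 over all loci. The wider spread of the members did not hold at high level. At a mean FPKM of 10 or more it was 0.33 in the members and 0.35 in the comparison genes. At 1 to under 10 it was 0.84 in the members and 0.52 in the comparison genes.

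**Figure D1:**
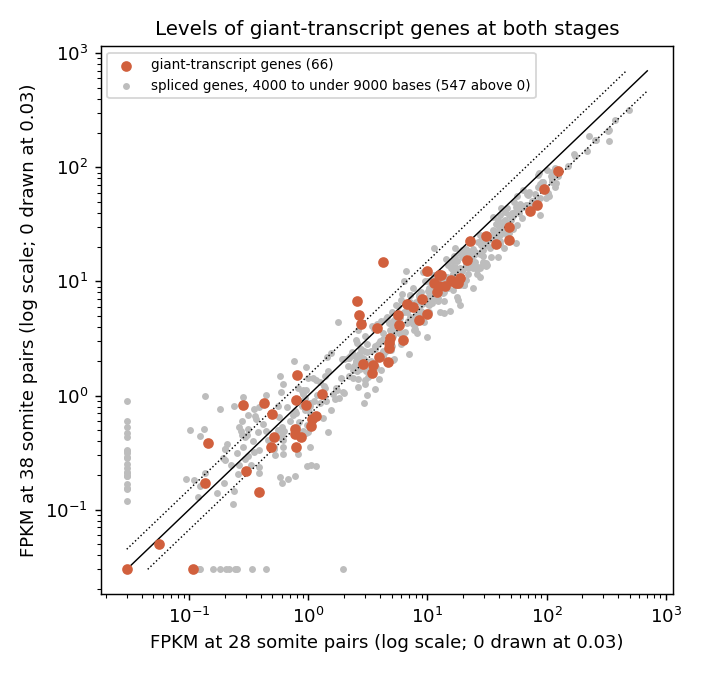
FPKM at 38 somite pairs (vertical) and at 28 (horizontal), both on log scales, for the 66 giant-transcript genes (orange) and the spliced genes of 4000 to under 9000 bases listed above 0 in a library (grey). The solid line marks equal values and the dotted lines 1.5-fold, and most orange points lie below the solid line, 50 of the 64 that were above 0 in both libraries.

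The difference grew with transcript length up to about 4000 bases and changed little from 4000 to under 8000. It was larger again from 8000 to under 12000 bases and kept no steady order among the members. Among spliced loci with a mean of at least 100 fragments, the median log2 FPKM ratio was -0.04 for transcripts under 500 bases, -0.20 for 1000 to under 2000 bases and -0.40 for 3000 to under 4000 bases. It lay between -0.48 and -0.51 for the 4 classes from 4000 to under 8000 bases, and at -0.61 over 17 loci of 8000 to under 9000 bases. Members of 9000 to under 10000 bases had a median of -0.61 (15 loci), those of 10000 to under 12000 bases one of -0.78 (14) and those of 12000 bases or more one of -0.52 (24). The longest class was therefore not the lowest. Across the 53 members Spearman's rho between length and log2 ratio was 0.03, a description over loci that share 2 libraries.

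**Figure D2:**
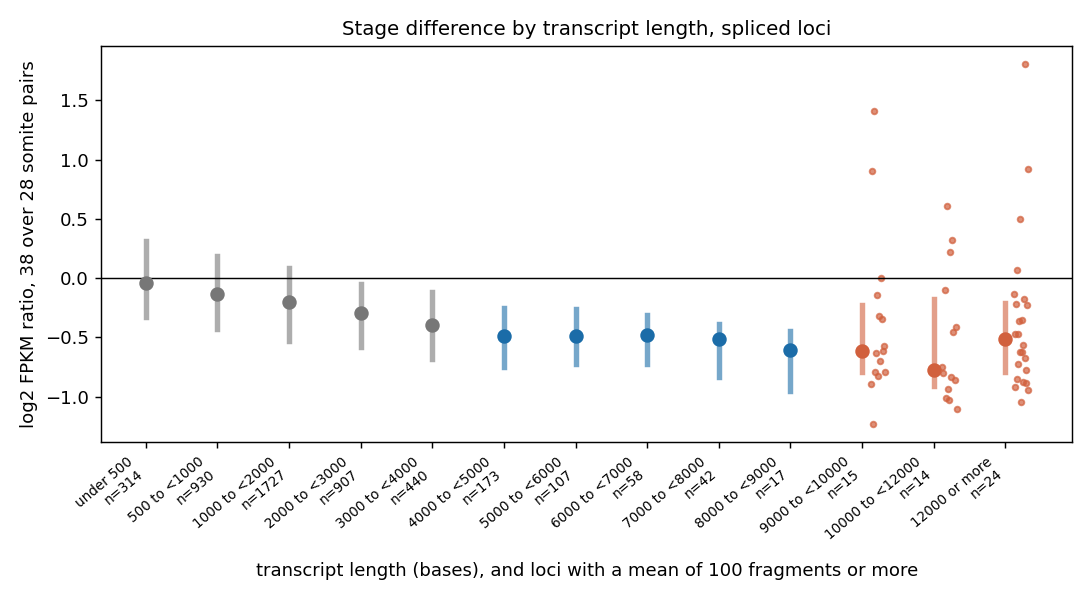
Log2 FPKM ratio, 38 over 28 somite pairs, by transcript length for spliced loci with a mean of at least 100 fragments; large points are medians, bars run between the quartiles, and small orange points are single giant-transcript genes. Medians fall to -0.40 by 3000 to under 4000 bases and lie between -0.48 and -0.78 from there on, while single giant-transcript genes reach both ends of the axis.

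The most abundant members were lower at 38 by moderate amounts. A locus on chromosome 2 (18585597 to 18724285, 10371 bases of transcript) had the highest level of all members, 93.4 FPKM at 38 somite pairs and 124.3 at 28. These were 11289 and 16104 fragments, a ratio per mapped fragment of 0.753 (exact Clopper-Pearson 95% interval 0.735 to 0.771). The level was lower at 38 by more than counting error. On chromosome 5 (111295551 to 111449118) the levels were 65.1 FPKM at 38 and 95.9 at 28, a ratio of 0.677 (0.661 to 0.694). A locus on chromosome 1 (174677584 to 174809187), with a transcript of 16626 bases, had 46.5 FPKM at 38 and 83.5 at 28. With 9418 fragments at 38 and 18169 at 28, its ratio was 0.557 (0.543 to 0.571). A locus on chromosome 4 (28560307 to 28666823) had 41.6 FPKM at 38 and 72.0 at 28, a ratio of 0.581 (0.561 to 0.602). On scaffold GL343431.1 (47465 to 151585) the values were 29.8 FPKM at 38 and 48.5 at 28, with a ratio of 0.614 (0.588 to 0.641). These are the 5 members of highest mean FPKM, and all 5 were lower at 38 beyond counting error.

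By fragments instead of FPKM, the first 4 of these loci and one on scaffold GL343232.1 led in both libraries. These 5 took 44.4% of the members' fragments at 38 somite pairs and 49.3% at 28. The medians given above weigh each locus alike. Of the 22 members with a mean FPKM of 10 or more, 20 were lower at 38 as deposited, and 17 with the 38-somite values multiplied by 1.20. Among loci of that level 69.2% were lower as deposited and 46.2% so scaled, and among comparison genes 95.6% and 81.0%, so the members' share was not above that of the comparison genes. The other 2 were a locus on chromosome 5 (142563237 to 142660215), with 12.3 FPKM at 38 and 9.85 at 28, a ratio of 1.25 (1.16 to 1.35), and one on chromosome 1 (192207952 to 192276827), with 22.8 FPKM in both libraries and a ratio of 1.00 (0.947 to 1.06).

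A few giant-transcript genes were clearly higher at 38 somite pairs. The largest ratio among members with a mean of at least 100 fragments was at ENSACAG00000010692 on chromosome 1 (155811507 to 155867872), whose transcript has 13686 bases. It had 14.8 FPKM at 38 and 4.22 at 28, from 2274 and 697 fragments, 3.50-fold higher per mapped fragment (3.22 to 3.82). Its coverage, the mean depth of reads over the transcript, was 32.1 at 38 and 10.03 at 28. Next was ENSACAG00000000350 on scaffold GL343214.1 (235083 to 251381), with 6.77 FPKM at 38 and 2.55 at 28, 2.65-fold higher (2.34 to 3.01). This locus is compact, with 9771 bases of transcript in 16.3 kb of genome. In the plot of FPKM at both stages, ENSACAG00000010692 lies furthest above the line of equal values. Members with a mean under 100 fragments reached FPKM ratios of 2.89 and 2.66 there, beside 2.65 for ENSACAG00000000350.

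The next 3 loci by ratio differed less. On chromosome 1 (72015518 to 72085064) the values were 5.03 FPKM at 38 and 2.66 at 28, a ratio of 1.91 (1.70 to 2.15). Its fragments, 786.6 and 443.0, were not whole numbers, as can happen where reads are shared with another locus, which the counting interval does not cover. On scaffold GL343280.1 (929683 to 1102279) they were 1.503 FPKM at 38 and 0.804 at 28, a ratio of 1.87 (1.46 to 2.40). On scaffold GL343339.1 (235103 to 406223) they were 4.20 FPKM at 38 and 2.75 at 28, a ratio of 1.52 (1.33 to 1.74). None of these 5 loci had a mean FPKM of 10 or more. ENSACAG00000010692 came close, at rank 23 by mean FPKM, directly after the 22 members of that level. Its 14.8 FPKM at 38 was above their median of 11.9 at 38.

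The lowest ratios among the 53 members with a mean of at least 100 fragments were more alike. ENSACAG00000015653 on chromosome 2 (100362209 to 100436514) had 1.99 FPKM at 38 and 4.66 at 28, 2.35-fold lower per mapped fragment at 38 (2.005 to 2.76). Its fragments were fractional as well, 221.0 at 38 and 557.4 at 28. ENSACAG00000013477 on chromosome 4 (107368359 to 107441212) had 1.59 FPKM at 38 and 3.43 at 28, 2.13-fold lower (1.80 to 2.52). A locus on scaffold GL343232.1 (1943436 to 2001780) had 23.3 FPKM at 38 and 48.0 at 28, from 4174 and 9239 fragments, 2.06-fold lower (1.99 to 2.14). This was the lowest ratio among the 22 members of high level. On scaffold GL343483.1 (436139 to 486325) the values were 3.08 FPKM at 38 and 6.28 at 28, a ratio of 0.504 (0.454 to 0.558). On scaffold GL343428.1 (776313 to 838032) they were 0.432 FPKM at 38 and 0.871 at 28, a ratio of 0.507 (0.381 to 0.670). Among these 53 the 5 lowest ratios ran from 0.426 to 0.507 and the 5 highest from 1.52 to 3.50. Among the members with fewer fragments the ratio reached 0.384 (0.242 to 0.594) at a locus on scaffold GL343767.1 (48798 to 69359), with 0.14 FPKM at 38 and 0.39 at 28.

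**Figure D3:**
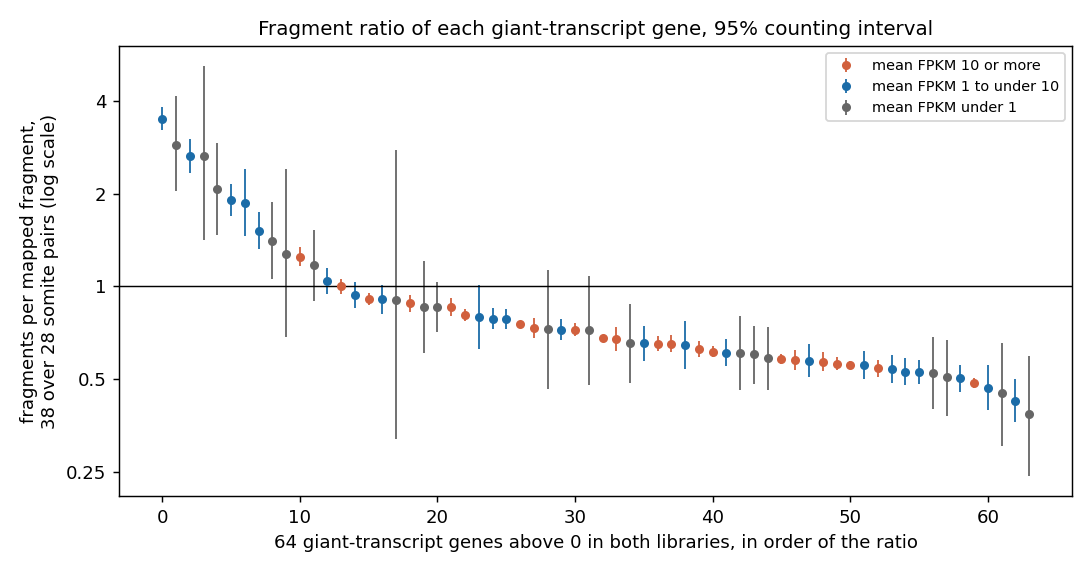
Fragments per mapped fragment at 38 somite pairs over those at 28 (log scale) for the 64 giant-transcript genes above 0 in both libraries, in order of the ratio, with exact 95% counting intervals and colours for the mean FPKM. The line marks a ratio of 1, and members of high level (orange) lie at 1.25 or below, while the highest ratio, 3.50, belongs to a member of middle level (blue).

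Counting error was small against these ratios. Of the 53 members with a mean of at least 100 fragments, 39 had an interval wholly below 1, beside 53.0% of all loci of that depth, 7 had one wholly above 1, beside 16.2%, and 7 had one that held 1. An interval narrows as fragments increase, so these shares depend on the number of fragments as well as on the ratio. No such share is given here for the comparison genes. The deposited upper bound of all 66 members was the FPKM plus 2 times its square root in both libraries (within 0.01 FPKM), whatever their fragments. The deposited bounds were apart in 3 members, all lower at 38, beside 3.87% of expressed genes, and in 0 members towards higher values, beside 2.15%. The 3 were the loci on chromosomes 1 (174677584 to 174809187) and 4 (28560307 to 28666823) and on scaffold GL343232.1. ENSACAG00000010692 was not among them, although its 2274 fragments at 38 and 697 at 28 lie far apart.

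The longest transcripts differed from each other in their ratios. The longest of all, 26427 bases on scaffold GL343259.1 (1615444 to 1910781), had 11.4 FPKM at 38 and 12.5 at 28, a ratio of 0.912 (0.872 to 0.954). The next, 24284 bases on scaffold GL343320.1 (716205 to 944482), had 1.84 FPKM at 38 and 3.48 at 28, a ratio of 0.528 (0.477 to 0.585). On chromosome 1 (1691904 to 1998805), one of 20637 bases had 4.16 FPKM at 38 and 5.75 at 28, a ratio of 0.724 (0.669 to 0.781). All 3 were lower at 38 as deposited, the longest turns higher when the 38-somite values are multiplied by 1.20, and the 3 intervals did not overlap.

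The difference had no steady order with the span of the locus. Among the 53 members the median log2 FPKM ratio was -0.45 over 4 loci spanning under 50 kb, -0.70 over 33 spanning 50 to under 150 kb and -0.41 over 16 spanning 150 kb or more. In the comparison genes it was -0.53 over 162 genes, -0.48 over 209 and -0.59 over 26 for the same spans. Spearman's rho between span and log2 ratio was 0.22 over the members and -0.004 over the comparison genes. The widest member, 415.8 kb on chromosome 3 (196998938 to 197414724), had 10.1 FPKM at 38 and 16.1 at 28, a ratio of 0.627 (0.590 to 0.666). A member of only 27.6 kb on the same chromosome (188598418 to 188626033), with a transcript of 13758 bases, had 11.4 FPKM at 38 and 12.9 at 28, a ratio of 0.881 (0.825 to 0.940).

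Low members were often still countable. An FPKM of 1 or more was found in 45 members at 38 somite pairs (68.2%) and 47 at 28 (71.2%), against 72.5% and 73.2% of the comparison genes at 38 and 28. In 44 members both libraries reached it, 1 member reached it only at 38, 3 only at 28 and 18 in neither. At 0.82 FPKM at 38 and 0.28 at 28, a locus on chromosome 2 (103804301 to 104067911) still held 124 fragments at 38 and 46 at 28. Its mean of 85 fragments was below the limit of 100, so it was not among the 53, and its ratio was 2.89 (2.05 to 4.15).

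The shortest 2 members were both low and higher at 38. The locus of 9015 bases on chromosome 1 (252067242 to 252260889) had 0.38 FPKM at 38 and 0.14 at 28, from 37 and 15 fragments. The locus of 9039 bases on chromosome 2 (164255981 to 164356861) had 0.87 FPKM at 38 and 0.42 at 28, from 104 and 54 fragments. Just outside the threshold, a locus on scaffold GL343283.1 (818892 to 845497) had 40.3 FPKM at 38 and 44.4 at 28, and 2 loci on chromosome 2 (164499230 to 164641513 and 46026609 to 46141988) had 0.25 and 0.74 FPKM at 38, against 0.26 and 0.94 at 28. The shortest 2 members were higher at 38 as deposited, and the locus of 9045 bases and the 3 just outside were lower. The 2 outside loci on chromosome 2 rest on few fragments, 38 and 73 at 38 against 43 and 99 at 28. No counting interval is given for the loci outside.

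Of the 11 members above 0 in both libraries with a mean under 100 fragments, 7 were lower at 38 and 4 were higher. The comparison genes above 0 in both libraries with a mean FPKM under 1 all had a mean under 100 fragments. Of these 104 genes 56 were lower and 48 higher. At any depth 63.0% of single-transcript loci above 0 in both libraries were lower, and no share is given here for all loci under 100 fragments. A locus on scaffold GL343573.1 (24327 to 75047, 14809 bases) was listed at 0 at 38 and had 29 fragments (0.11 FPKM) at 28, and one on scaffold GL343790.1 (80813 to 189128, 15411 bases) was listed at 0 in both libraries. The lowest listed values were 8 fragments at 38 and 9.49 at 28, at a locus on scaffold GL344103.1 (17270 to 87505).

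Coverage moved with FPKM. Over the 53 members with a mean of at least 100 fragments, the median coverage at 38 somite pairs was 0.609 times that at 28. Divided by the ratio of mapped fragments, 0.931, this became 0.654, and the median fragment ratio per mapped fragment was 0.655. The fragment ratio was computed from FPKM and follows it by construction. Coverage times length per fragment, which is the number of sequenced bases a fragment adds if coverage is the mean depth, had a median of 161.8 at 38 and 167.5 at 28. It was lower at 38 in 32 of the 53 members and in 294 of 397 comparison genes, whose medians were 157.2 at 38 and 161.9 at 28. Loci with more bases per fragment at 38 tended to have the higher log2 FPKM ratio, with Spearman's rho of 0.43 over the 53 members and 0.30 over the 397 comparison genes. These are descriptions over loci that share 2 libraries, and the part of bases per fragment in the stage difference was not tested. Bases per fragment divide by fragments, which were computed from FPKM and effective length. The FPKM at 38 therefore enters both sides of this rho, which are not independent.

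The length that the deposited FPKM were divided by, called effective length in the files, went with the stage difference. It ran from 0.818 to 1.42 times the transcript length at 38 somite pairs and from 0.821 to 1.36 times at 28, and it was above the transcript length in 19 of 66 members (28.8%) and in 233 of 567 comparison genes (41.1%) at 38. How it was set is not given in the sources used here. Over the members, effective length at 38 was 0.992 to 1.04 times that at 28. The 12 members where it was over 1.1 times the transcript length all lay on unplaced scaffolds or contigs and had at most 3.08 FPKM at 38 and 6.28 at 28. Such an effective length was found in 20.5% of comparison genes, and 83.6% of these were unplaced, against 41.8% of all comparison genes.

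Among members with a mean of at least 100 fragments, all 12 with an effective length above the transcript length were lower at 38, with a median log2 ratio of -0.79. Of these, 9 were at least 1.5-fold lower. In this class 83.1% of all loci and 92.7% of the comparison genes were lower, and 35.9% and 54.7% were at least 1.5-fold lower. For the other 41 members the median was -0.47, with 31 lower and 10 higher at 38. Of the comparison genes in that class 231 were lower and 29 higher, a larger share lower than in the members. Over all loci of that depth, whatever their effective length, 70.8% were lower. In the comparison genes the medians were -0.63 over 137 genes and -0.45 over 260. Without loci whose effective length was above the transcript length, the members and the comparison genes thus differed by -0.02 in the median log2 ratio, against -0.12 with them. Over the 53 members Spearman's rho of the log2 ratio with effective length over transcript length was -0.31 (-0.23 over the comparison genes). Effective length over transcript length went with bases per fragment at -0.78 (-0.77 over the comparison genes). Bases per fragment divide by fragments, which were computed from effective length. These measures therefore share a term, and the rho between them is not a separate result. The part of effective length in the stage difference was not tested, and fragment ratios, which do not divide by it, had medians of 0.592 in the 12 members and 0.723 in the 41.

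**Figure D4:**
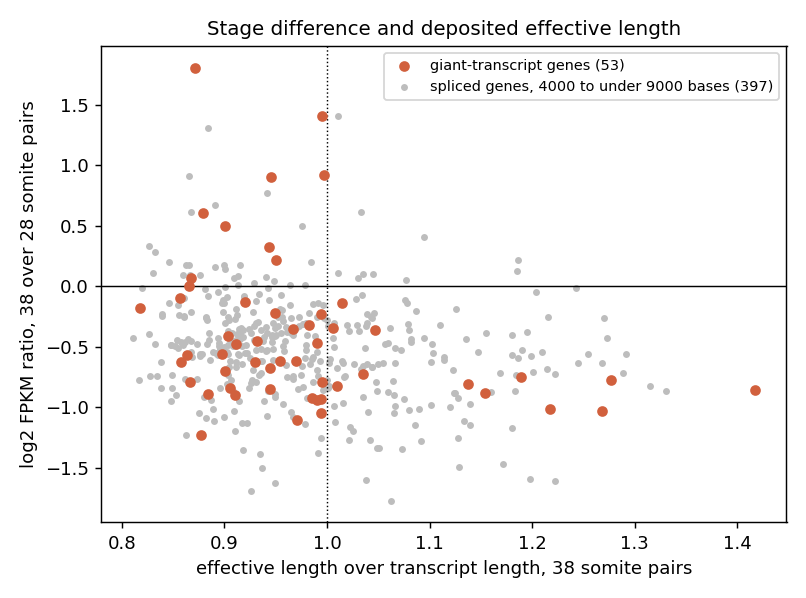
Log2 FPKM ratio, 38 over 28 somite pairs, against effective length over transcript length at 38 somite pairs, for 53 giant-transcript genes (orange) and 397 spliced genes of 4000 to under 9000 bases (grey), each with a mean of at least 100 fragments. Right of the dotted line, where effective length is above transcript length, all 12 orange points lie below 0, and the 10 orange points above 0 lie left of it.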

How the data were processed

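The labels' protocols name the mirVana kit for total RNA and the Ovation kit of NuGEN for the libraries. Alignment was by TopHat, of reads left untrimmed, to AnoCar2.0, per the design text. TopHat and Cufflinks stand in the submitters' processing notes without a version, and the annotation is not given in the sources used here. Per the file headers, the authors deposited FPKM with bounds, a coverage signal, the fraction of each transcript in its locus (used in no comparison), length and effective length. All 21085 genes had the status OK in both libraries.

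Fragments are FPKM times effective length times mapped fragments. The mapped total was taken as the step that made 92.8% of 5061 low loci (under 100 fragments) at 38 somite pairs and 93.3% of 4565 at 28 whole within 0.02 fragments. This assumes that FPKM were scaled to all mapped fragments. Ratio intervals are exact 95% (Clopper-Pearson) from rounded fragments.

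With 1 library per stage, depth limits single loci and nothing measures the spread between embryos. The members, groups and rules were chosen with earlier results of these data known. Named loci were the 5 highest and 5 lowest ratios at a mean of 100 fragments, the 5 highest mean FPKM, the 3 longest, the 3 on each side of the length threshold and any locus at 0 in 1 library. Further loci and the grouping by effective length were chosen after their values were seen. Groups of named gene families and loci's sequences were not used here, since identifiers had no names. Steps were tested on simulated data in which every locus held whole fragments, so that test did not cover fractional ones. Alternatives covered pseudocount, filter, scaling, length threshold and comparison genes. The tools were scipy 1.17.1, pandas 2.3.3, numpy 2.4.6 and matplotlib 3.10.9 under Python 3.11.15.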

Additional observations from a re-analysis of the deposited data

Results flagged for a closer look

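Long transcripts that share a locus with another gene or transcript were neither members nor comparison genes, yet had signal. There were 34 such transcripts of 9000 bases or more in 25 loci, of which 15 had an FPKM of 1 or more at 38 somite pairs and 15 at 28. Their FPKM summed to 173.7 at 38 and 226.0 at 28. No fragment ratios are given for them, because reads of a shared locus are divided between transcripts by estimate. Their estimated fragments did enter the totals in listed transcripts, and their genes were not kept out of the values over all expressed genes. A lone library per stage left no group in which a sample could stand out.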

How the results depend on the processing

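No paired analysis was possible because there was only 1 embryo at either stage. Alternatives without a pseudocount were added after the data were seen. Of 98 alternative values, 69 stayed within the tolerance of the reported one (the binomial 95% interval of a median over genes, or 1.5 times a count), and 0 medians of the members or of the comparison genes changed sign. The cause of the other moves was not tested unless one is named. The interval of a median describes spread over loci that share 2 libraries, not error between embryos. It ran from -0.62 to -0.32 for the members and was narrower for the more numerous comparison genes. Within it the members' median was -0.60 with a pseudocount of 0.1 FPKM, -0.53 with 0.5 and -0.61 as a plain FPKM ratio. Members at least 1.5-fold lower then numbered 25 with 0.1 and 20 with 0.5, within the tolerance as well, against 17 as reported. The members' median log2 difference moved to -0.31 with a pseudocount of 5 FPKM, -0.27 with equal fragments in listed transcripts and -0.30 with equal upper quartiles. That of the comparison genes moved to -0.48 with a pseudocount of 0.1 FPKM and -0.31 with 5, -0.32 with no filter, -0.48 at an FPKM of 5 or more, -0.35 above 0 in both libraries, -0.49 as a plain FPKM ratio, -0.20 with equal fragments in listed transcripts, -0.31 with equal sums, -0.23 with equal upper quartiles and -0.25 with the median of expressed genes at 0. The gap between the medians, -0.0042 as reported, stayed between -0.12 and 0.04 and took either sign. All its alternatives are among the 69, although it is a difference of 2 medians and the tolerance named above is for a median or a count. Members at least 1.5-fold lower at 38 numbered 7 with a pseudocount of 5, 5, 8 and 9 with equal fragments in listed transcripts, equal upper quartiles and the median at 0, and 27 as a plain ratio. They numbered 11 of 33 for transcripts of at least 10000 bases and 6 of 22 for at least 12000, where fewer loci entered. Beside these stand 23.1% of all expressed genes and 31.6% of the comparison genes. Members at least 1.5-fold higher numbered 5 under the same 3 scalings, with a pseudocount of 0.1 and as a plain ratio, against 3 as reported. Shares for equal fragments in listed transcripts, the median at 0 and the plain ratio are given above. No share is given here at the other pseudocounts or equal upper quartiles, where the counts are not a result about the members. The median fragment ratio over the 64 members above 0 in both libraries, 0.699 per mapped fragment, was 0.839 per fragment in listed transcripts. The ratio of the members' summed fragments, 0.693, was 0.831 per fragment in listed transcripts and 0.829 per fragment in single-transcript loci. At 28 somite pairs 30 members had an FPKM of 5 or more, against 47 with 1 or more. Depth limits the members under 100 fragments, whose counting intervals are wide.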

Other observations

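Some neighbouring giant-transcript genes differed in direction and others did not. Within 5 Mb there were 5 pairs of neighbours. Of these members, 3 lay in a row on chromosome 2. The first (100362209 to 100436514) was at 1.99 FPKM at 38 somite pairs and 4.66 at 28, the next (101922189 to 102051446) had 0.22 at 38 and 0.30 at 28, and the last (103804301 to 104067911) had 0.82 at 38 and 0.28 at 28. The outer loci moved in opposite directions, with fragment intervals that did not overlap. The interval of the middle locus, 0.464 to 1.13, held 1. On chromosome 5, a member at 138723543 to 138848106 had 15.5 FPKM at 38 and 21.5 at 28, while its neighbour 3.72 Mb on, at 142563237 to 142660215, had 12.3 at 38 and 9.85 at 28. On chromosome 3 both members of a pair were lower at 38. They had 11.4 FPKM at 38 and 12.9 at 28 (188598418 to 188626033) and 10.8 at 38 and 18.7 at 28 (191763083 to 191921617). The remaining pair, on chromosome 2, held the most abundant member (18585597 to 18724285), with 93.4 FPKM at 38 and 124.3 at 28, and a locus (22997864 to 23278475) with 3.92 at 38 and 3.74 at 28, whose fragment interval held 1.

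One further locus met the length rule but lay on LGb, part of this lizard's X chromosome. Its transcript of 12705 bases (1658933 to 1696615) was at 1.17 FPKM at 38 somite pairs and 1.38 at 28.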
